A study of Mus musculus with 2 samples.

Results

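The clustered protocadherins are the cell surface proteins of the alpha, beta and gamma Pcdh gene clusters. They were taken here as every annotated gene whose symbol is Pcdha, Pcdhb or Pcdhg followed by an optional a, b or c and a number. This rule found 58 genes of the 55536 in the annotation: 12 alternate alpha, 22 beta and 19 alternate gamma members, and the 5 C-type members Pcdhac1, Pcdhac2, Pcdhgc3, Pcdhgc4 and Pcdhgc5. The alternate gamma members divide into 12 of the A kind (Pcdhga) and 7 of the B kind (Pcdhgb). By annotation 57 members are protein-coding, and Pcdhgb8 is a polymorphic pseudogene. The members carry 57 symbols, because the annotation gives Pcdha11 to 2 gene entries, ENSMUSG00000007440 and ENSMUSG00000102206. These are called Pcdha11 entry 1 and Pcdha11 entry 2 in the order in which they lie.

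Total RNA, depleted of ribosomal RNA and with ERCC spike-ins (synthetic control RNAs), was sequenced from the hippocampus of female B6CASTF1/J mice, hybrids of C57BL/6J and CAST/EiJ, aged 14 days. The single group held 2 libraries, called biological replicates 1 and 2 in the labels, each made from 300 ng of RNA and each listing 3 females, so a library is not 1 animal. The labels speak of a hippocampal layer but do not name it, and they give both libraries the same donor identifier. With no second condition, the data describe levels, and the replicates show how far those levels moved; the spread between them may be technical, and no p-value is given.

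In the alpha and gamma clusters, a long variable exon encodes the extracellular cadherin repeats and the membrane span. Each variable exon has a promoter of its own, and it is spliced to a set of constant exons that encode a cytoplasmic tail common to its cluster. Beta members have no constant exons. Pairs of these proteins assemble on a cell and bind matching sets on other cells, and in neurons this recognition lets branches of the same cell avoid each other. Single neurons are known to use a random choice of alternate members, made through the chromatin factor CTCF and the cohesin complex, whereas C-type members are used more uniformly. A level in bulk tissue averages over such choices, and fewer cells of a type cannot be told apart from less RNA in each cell.

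All members lie on the plus strand of chromosome 18 in mm10, within 912 kb (chr18:36930184-37841873). The alpha cluster takes up chr18:36930184-37187661, the beta cluster chr18:37264938-37524479 and the gamma cluster chr18:37661793-37841873. The variable coding exon has a median of 2384 bases among alternate alpha, 2421 among alternate gamma and 2451 among C-type members. The 3 constant exons add 456 coding bases in alpha and 372 in gamma. The 22 beta members have an uninterrupted coding exon of 2316 to 2487 bases.

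Levels are given in TPM, the share of a library's transcripts that a gene holds after its length is allowed for, so that genes can be compared. The mean ± SD covers the 2 libraries. Of the 58 members, 57 were detected, meaning at 1 TPM or more in both libraries. Among all 22015 nuclear protein-coding genes, 58.6% were detected by the same rule. The members summed to 390 TPM (replicate 1) and 414 TPM (replicate 2), from 38148 and 39517 expected counts, or 0.114% and 0.121% of all counts on genes. The libraries held 33321573 and 32740837 such counts. Detection by a rule that 58.6% of these genes pass does not by itself establish the tissue. Of the listed marker genes of hippocampal neurons, 9 of 9 were detected. Their levels ranged from C1ql2, a dentate granule cell gene, at 21.1 ± 5.0 TPM to the excitatory transporter Slc17a7 at 691 ± 27 TPM, with Neurod6 at 93.4 ± 10.9 and Wfs1 at 59.8 ± 13.9. Markers of serotonergic neurons, whose cell bodies lie in the brainstem, were detected for 0 of 3 genes. Fev was listed at 0 TPM in both libraries, and Slc6a4 and Tph2 stood at most at 0.16 and 0.71 TPM.

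As whole genes in the first of the authors' 2 quantifications, 4 of the 5 C-type members had higher levels in both libraries than any alternate or beta member. In the second, Pcdhgc4 did not keep this place. It had 15.2 TPM in replicate 1 and 20.4 TPM in replicate 2, against 19.1 and 18.8 TPM for the alternate member Pcdhga11. The levels that follow are of the first quantification unless stated. The median member had 3.74 ± 0.80 TPM among alternate alpha, 3.01 ± 0.24 among beta and 5.04 ± 0.06 among alternate gamma members, where the SD is that of the 2 libraries' medians. The median C-type member had 46.7 ± 8.3 TPM. C-type members, 5 of 58 genes, held 46.3% of the family's summed TPM in replicate 1 and 49.6% in replicate 2. Gamma C-type members alone held 38.7% and 43.1%, more in either library than the 26.7% and 24.4% of the 19 alternate gamma members. Alternate alpha members held 9.86% and 12.0%, and beta members 17.1% and 14.1%.

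**Figure D1:**
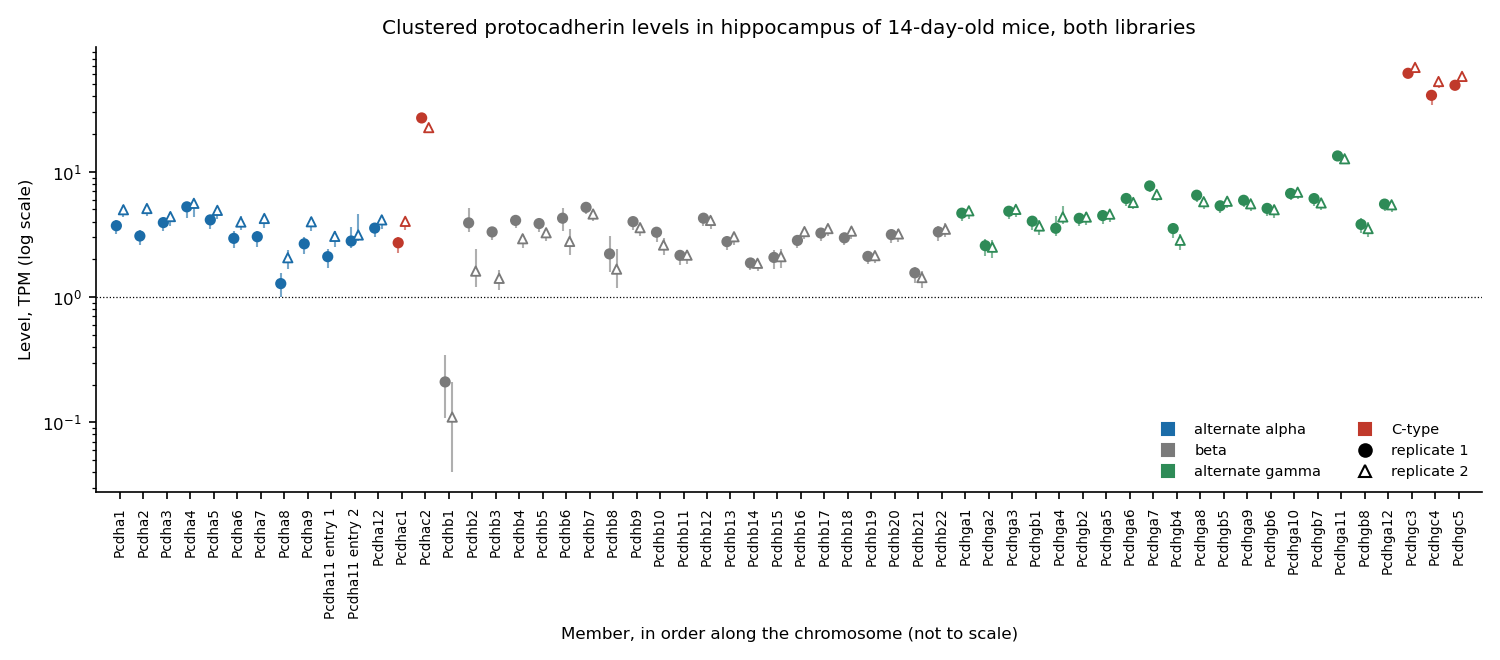
Level of each of the 58 members (TPM of the first quantification, log scale) in order along the chromosome. Filled circles are replicate 1 and open triangles replicate 2, lines are the authors' credibility bounds of the TPM, whose level the tables do not state, and the dotted line is the detection limit of 1 TPM. Pcdhgc3, Pcdhgc5, Pcdhgc4 and Pcdhac2 stand above all alternate members, and Pcdhb1 lies below the limit in both libraries.

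Among the C-type members, Pcdhgc3 had the highest level of the family, with 61.2 TPM in the first library and 68.1 TPM in the second. Pcdhgc3 is the gamma member whose tail is known to bind the Wnt pathway scaffold Axin1. Pcdhgc5, a member known to appear in the forebrain after birth and to bind GABA-A receptors, had 49.1 and 57.7 TPM. Its values in both libraries were below both values of Pcdhgc3. Pcdhgc4, the isoform known for its part in the survival of cortical interneurons, had 40.8 and 52.6 TPM. It was below Pcdhgc5 within each library, although the ranges over the libraries overlapped.

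The alpha C-type members differed from each other. Pcdhac2, known for the spacing of serotonergic axons, had 26.9 and 22.5 TPM, above every alternate member of any cluster. Pcdhac1 had 2.71 and 4.02 TPM, within the range of the alternate alpha members. The mean of Pcdhac2 was 7.35 times that of Pcdhac1. C-type members made up 39.2% ± 6.1 of the alpha cluster's TPM, most of it Pcdhac2, against 61.5% ± 3.3 of the gamma cluster's. Against all detected nuclear protein-coding genes, Pcdhgc3 stood at the 88.6th percentile of level, Pcdhac2 at the 66.4th and Pcdhac1 at the 13.9th.

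**Figure D2:**
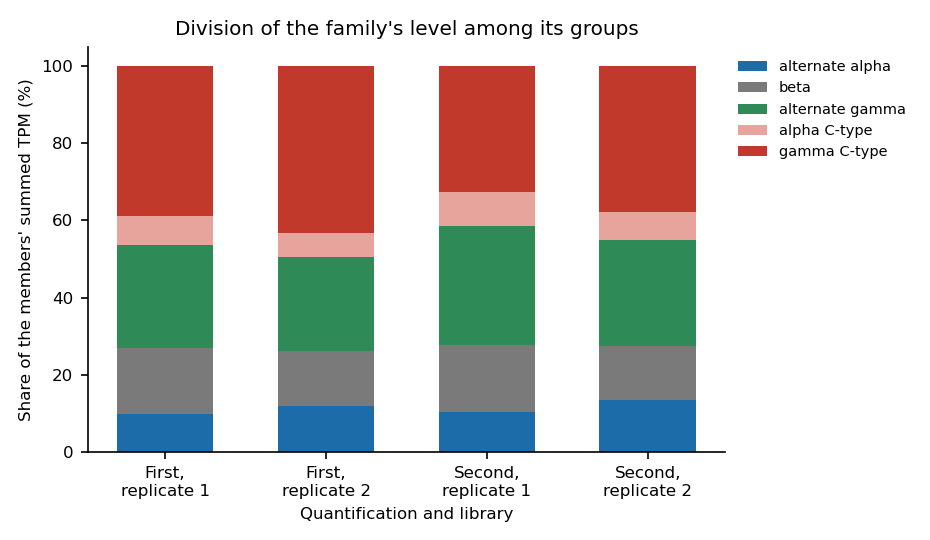
Share of the family's summed TPM (%) held by each group, in both libraries and both of the authors' quantifications. The gamma C-type share is 38.7% and 43.1% in the first quantification and 32.7% and 37.9% in the second.

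The alternate alpha members spanned 3.25-fold in mean level, and 11 of 12 lay within 1.5-fold of their median. Pcdha4 was the highest, at 5.25 and 5.6 TPM. Next by mean level were Pcdha5, with 4.13 and 4.92 TPM, and Pcdha1, with 3.71 and 4.98 TPM. As a whole gene Pcdha4 was above the others in both libraries, while Pcdha5 and Pcdha1 overlapped. A Pcdha4 transcript with the variable exon and no constant exons accounted for 1.1 and 1.48 TPM of its level. Its transcript with the full variable exon and the constant exons had 4.15 and 3.77 TPM. The mean of that transcript, 3.96 TPM, was below the 4.525 TPM of Pcdha5 and the 4.345 TPM of Pcdha1, counted in the same way. The places after Pcdha4 were not fixed. In replicate 1 Pcdha3, with 3.93 TPM, stood above Pcdha1, and in replicate 2 Pcdha2, with 5.09 TPM, stood above Pcdha5 and Pcdha1. The second quantification did not place Pcdha4 first, giving it 4.90 and 6.74 TPM. There the highest value was that of Pcdha3 in replicate 1, at 5.89 TPM, and that of Pcdha11 entry 2 in replicate 2, at 10.1 TPM. Of that 10.1 TPM, 5.52 TPM came from 27.2 estimated counts on a 625-base transcript with 205 bases outside the constant exons. Transcripts of this entry with a full variable exon and the constant exons had 0 TPM in that library. Pcdha8 was the lowest, with 1.28 and 2.06 TPM from 153 and 245 counts, below every other alternate alpha member in each library. The highest member held only 12.3% of the group's TPM. Members nearer the start of the cluster tended to be higher, with a Spearman coefficient of order and mean level of -0.69 over 12 members. It was -0.38 in the second quantification, and since the members share constant exons and libraries it is given as a description.

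Among the beta members, 17 of 22 lay within 1.5-fold of the median, and the highest held 7.85% of the group's TPM. Pcdhb7 was highest, at 5.2 and 4.6 TPM, followed by Pcdhb12 at 4.26 and 4.09 TPM and Pcdhb9 at 4 and 3.58 TPM. Pcdhb7 was the highest in each library, but the next places were not fixed: in replicate 1 Pcdhb6 had the same 4.26 TPM as Pcdhb12, and Pcdhb4, with 4.09 TPM, stood above Pcdhb9. Pcdhb1, the beta gene that lies first in the cluster, had 0.21 and 0.11 TPM from 12 and 6 counts. It was the single undetected member, although its counts exceeded the floor of 3 counts. Of its 31-base words 0% occur in another annotated gene. Level and order along the beta cluster had a Spearman coefficient of -0.37 in replicate 1 and 0.29 in replicate 2, opposite in sign, and -0.08 for the mean level.

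The alternate gamma median was above those of the alternate alpha and beta members in each library. Pcdhga11 stood apart among them, with 13.4 and 12.7 TPM from 1425 and 1345 counts. Its mean was 1.82 times that of the next alternate member, Pcdhga7, which had 7.71 and 6.59 TPM. Pcdhga10 had 6.71 and 6.87 TPM, overlapping Pcdhga7. The lowest was Pcdhga2, with 2.57 and 2.5 TPM, below every other alternate gamma member in both libraries. The median was 5.61 ± 0.16 TPM among the 12 A members and 4.30 ± 0.07 among the 7 B members. Pcdhgb8, the annotated polymorphic pseudogene, had 3.8 and 3.52 TPM, inside the range of the other B members. The Spearman coefficient of order and level was 0.45 over the 19 alternate gamma members, opposite in sign to that of the alpha cluster.

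Because members share exons, reads that fall in the constant exons have to be divided among genes by the quantification software. The share of a gene's 31-base words that also occur in another member, on either strand, had a median of 62.6% among alternate alpha, 46.3% among alternate gamma, 38.1% among C-type and 11.8% among beta members. The authors' posterior SD of the count, which measures how uncertain that division is, had a median of 5.61% of the count among alternate alpha, 3.64% among alternate gamma and 0.347% among beta members in replicate 1. In replicate 2 these medians were 4.58%, 3.62% and 0.484%. Among C-type members, it was 1.06% for Pcdhgc3 and 5.17% for Pcdhgc4 in replicate 1. By this measure beta counts were the best resolved of the family and alternate alpha counts the least. It measures the count and not the TPM, which can rest on few counts of a short transcript. In Pcdhb8, a 462-base transcript held 43.4% and 32.4% of the gene's TPM from 7.97 and 4.46 expected counts.

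**Figure D3:**
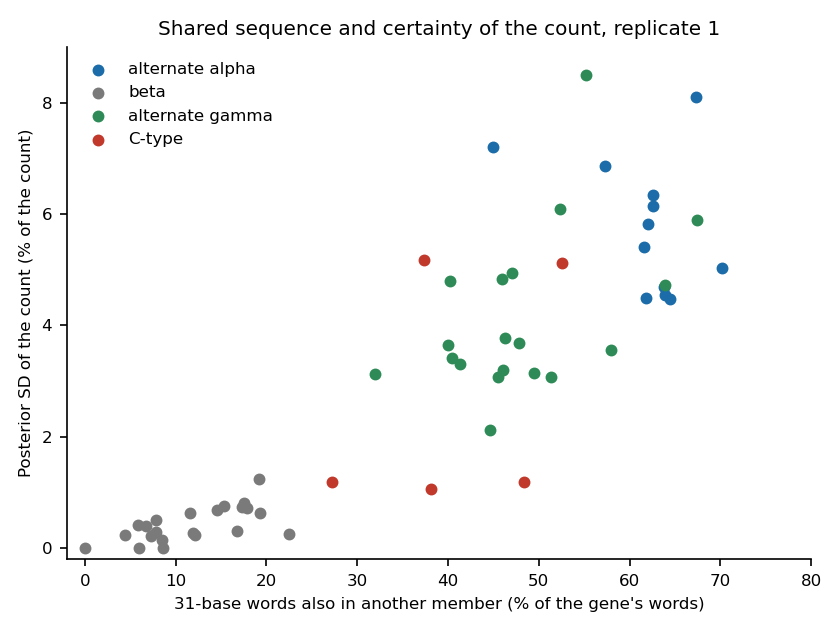
For each member, the share of its 31-base words that also occur in another member (%) against the posterior SD of its count (% of the count) in replicate 1. Beta members lie at the lower left, with an SD of at most 1.23%, and alternate alpha members lie at 44.9% of shared words or more.

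Antisense and overlapping genes also share words with members, and whether counting used strand is not stated in the labels or headers. The 9 antisense entries in the region were all at 1 TPM or below in both libraries. The 6 highest shares of words found in genes outside the family were 67.9% for Pcdhga10, 63.1% for Pcdhb12, 43.9% for Pcdha11 entry 2, 42.6% for Pcdha4, 41.6% for Pcdhga11 and 39.2% for Pcdhgc3. These shares describe the sequence and are not errors of the levels.

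The authors quantified the same reads a second time, straight from the reads and without genome alignment. For this comparison each library was rescaled so that nuclear protein-coding genes share the same total as all entries do in TPM. Of the 57 detected members, 55 were lower in the second quantification in both libraries, or 96.5%, against 55.8% of all 12892 detected nuclear protein-coding genes. The median ratio of second to first was 0.848 and 0.861 in replicates 1 and 2 for members, and 0.944 and 0.945 for all those genes. More than 2-fold differences in the same direction in both libraries were rare: 0 members were higher in the second quantification, where the background was 5%, and 1 was lower, where the background was 0.645%.

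That member was Pcdhgc4. Its rescaled level was 90.6 and 122 in the first quantification and 20.6 and 28.8 in the second, ratios of 0.227 and 0.235. The difference lay in an annotated transcript of 2272 bases with a first exon of 153 bases joined to the gamma constant exons. The first quantification gave it 31.1 and 42.6 TPM, or 76.3% and 81.1% of the gene. The second gave it 0 and 4.71 TPM. The full-length transcript, which holds the 2451-base variable coding exon, had 7.72 and 8.39 TPM in the first and 13.9 and 14.9 TPM in the second, below the full-length transcripts of Pcdhgc3, Pcdhgc5 and Pcdhac2 in each library of each quantification.

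Pcdhgc5 also has such transcripts. The one of 593 bases had 7.37 and 16.2 TPM in the first quantification and 0 and 24.8 TPM in the second. The full-length transcript was steadier between libraries, with 38.6 and 39.8 TPM in the first and 57.9 and 60.6 TPM in the second. Pcdhgc3 was held almost whole by its full-length transcript, at 60.2 and 66.6 TPM. In the second quantification, a 742-base transcript of Gm38182, a non-coding gene outside the family that overlaps the gamma constant exons, had 56.7 and 67.9 TPM, against 0 in the first. How reads of the constant exons were divided among these entries was not tested.

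Counting only transcripts with a variable exon of at least 2000 bases and the first 2 constant exons, a rule chosen after these values were seen, lowered the C-type median to 24.7 TPM. The level of Pcdhgc4 became 8.06 ± 0.47 TPM, below the 13.0 ± 0.5 TPM of the alternate member Pcdhga11, so that 3 of the 5 C-type members then stood above all alternate members. The order of the C-type members was then Pcdhgc3, Pcdhgc5, Pcdhac2, Pcdhgc4 and Pcdhac1. On this rule the C-type share was 41.5% ± 6.2 of the alpha and 53.6% ± 1.6 of the gamma cluster. The second quantification gave 43.8% ± 6.9 and 53.4% ± 1.6.

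**Figure D4:**
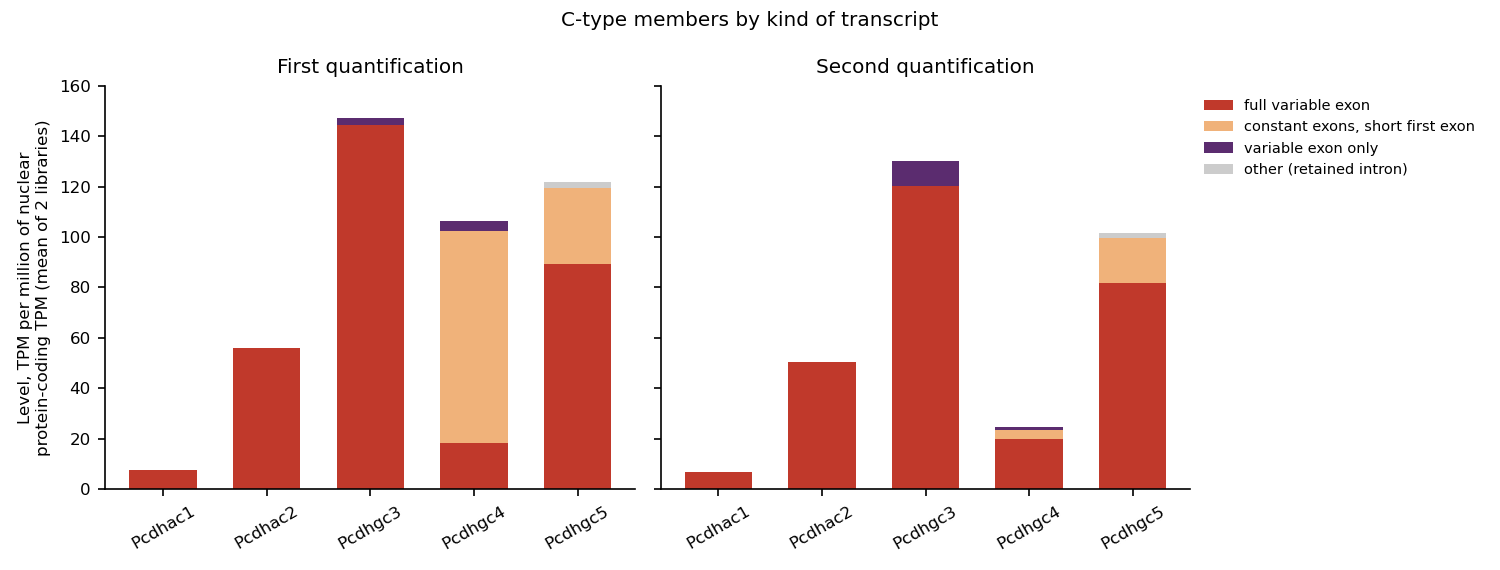
Mean level of each C-type member (TPM rescaled over nuclear protein-coding genes, 2 libraries) divided by kind of transcript, in the first (left) and second (right) quantification. The Pcdhgc4 bar reaches 107 in the first and 24.7 in the second, and most of the difference is in its short transcript.

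Of the members, 12 have an annotated transcript that holds the variable exon and none of the constant exons. These transcripts took from 0% to 50.9% of the gene's TPM, with a median of 16.0% in replicate 1 and 13.5% in replicate 2. The highest share belonged to Pcdha11 entry 2, whose variable-exon-only transcript held 47.7% and 50.9% of the gene. The full-length transcripts of that entry held 14.3% and 14.4%.

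The libraries were next compared member by member, as the ratio of replicate 2 to replicate 1 after TMM scaling, which sets most genes to a ratio near 1. The interval beside each ratio is an exact 95% binomial interval and covers counting error only, not the division of shared reads. Of the 57 members with at least 50 summed counts, 6 were over 1.5-fold higher and 2 over 1.5-fold lower in replicate 2. Among all 13803 genes so tested, 1.3% were as much higher and 3.25% as much lower. With 1 library on each side these ratios compare libraries and have no replicate check.

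The alpha cluster supplied all 6 of the higher members. All 12 alternate alpha members were higher in replicate 2, at a median log2 ratio of 0.54. Of all 13803 genes tested, 51.7% were higher in replicate 2, at a median of 0.01. For Pcdha2 the counts were 334 and 584, a ratio of 1.89 (1.65 to 2.17), and for Pcdha8 153 and 245, a ratio of 1.73 (1.41 to 2.13). The other alternate alpha members over 1.5-fold were Pcdha9, Pcdha11 entry 1 and Pcdha7, with ratios of 1.61, 1.56 and 1.5. Pcdhac1 moved with them, with 330 and 486 counts and a ratio of 1.59 (1.38 to 1.83). Pcdhac2, which has the same constant exons, went the other way, with 3563 and 2965 counts and a ratio of 0.899 (0.856 to 0.944). All 12 alternate alpha members were also higher in the second quantification, made from the same reads, with a median of 0.53. Library-size scaling lowers every log2 ratio by the same amount. It took the lowest of the 12 from 0.13 to 0.04 and the median to 0.45, so it changed no direction. Over 1.5-fold higher were 3 of the 12 with library-size scaling and 4 in the second quantification, and 0 C-type members in either. These members were named after their values were seen.

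The beta members split by position. The first 10 along the cluster, Pcdhb1 to Pcdhb10, were all lower in replicate 2, while only Pcdhb21 was lower among the other 12, by a log2 ratio of -0.02. The interval excluded a ratio of 1 for 4 of the 10, Pcdhb2, Pcdhb3, Pcdhb4 and Pcdhb6, and held it for the other 6. Pcdhb2 had 228 and 86 counts, 2.45-fold lower in replicate 2 (1.91 to 3.18). Pcdhb3 had 279 and 118 counts, 2.18-fold lower (1.76 to 2.74). Pcdhb6 and Pcdhb4 were 1.41-fold and 1.31-fold lower, and the remaining members of the first 10 with enough counts lay closer to 1. The Spearman coefficient of order and log2 ratio was 0.85 over 22 members in the first quantification and 0.86 in the second, as a description. The break after Pcdhb10 was set after the values were seen, at the first member whose ratio was not below 1. Library-size scaling lowers every log2 ratio by the same amount, so it cannot change the direction of these 10. In the second quantification, made from the same reads, 10 of the 10 were also lower.

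**Figure D5:**
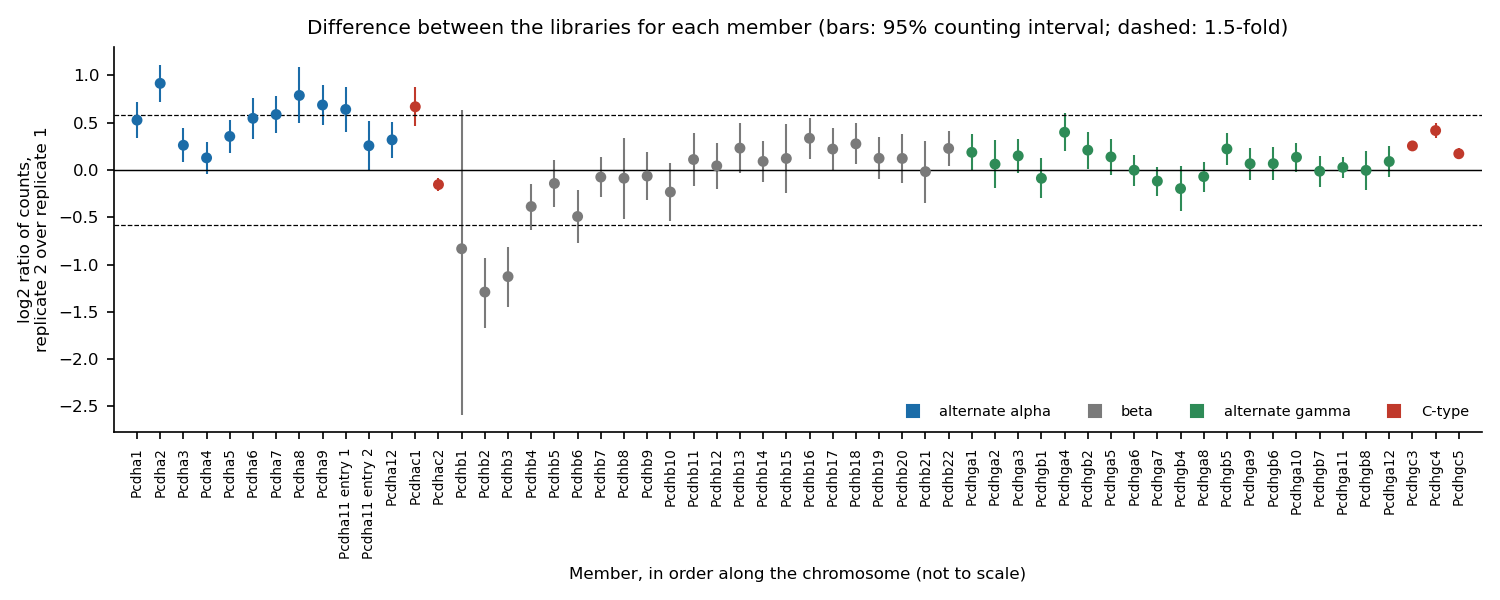
log2 ratio of counts, replicate 2 over replicate 1, for each of the 58 members in order along the chromosome. Vertical lines are 95% counting intervals and dashed lines mark 1.5-fold. Alternate alpha members lie above 0, the first 10 beta members lie below it, and alternate gamma members lie within 1.5-fold.

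The alternate gamma members differed little between libraries. Their log2 ratios ran from -0.20 to 0.40 with a median of 0.07, which became -0.02 with library-size scaling, and 0 of 19 were over 1.5-fold apart. The interval excluded a ratio of 1 for 3 of them. The gamma C-type members were each higher in replicate 2, with log2 ratios of 0.25 for Pcdhgc3, 0.42 for Pcdhgc4 and 0.17 for Pcdhgc5. For Pcdhgc4, the short transcript had 1547 and 2106 expected counts and the full-length transcript 869 and 940. Its ratio as a whole gene thus rests largely on the short transcript, on which the quantifications differ. For reference, the central 95% of log2 ratios of protein-coding genes with 100 to 2000 summed counts ran from -0.70 to 0.48. The gamma C-type members each had over 2000 counts in either library, so this range is not a reference for them. Pcdhga11, with 1425 and 1345 counts, also lies outside that window.

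The libraries also differed in tissue content. Markers of choroid plexus, the ventricular tissue that makes cerebrospinal fluid, were over 1.5-fold lower in replicate 2 for 10 of 10 genes. Their summed level was 1445 TPM in replicate 1 and 10.02 TPM in replicate 2, led by Ttr with 1375 and 5.62 TPM, with Sostdc1 at 14.7 and 1.99 TPM, Folr1 at 15.5 and 0.26 TPM, and Kcne2, the lowest, at 3.3 and 0.03 TPM. Astrocyte markers summed to 1820 and 2127 TPM, with 0 of 6 genes over 1.5-fold apart. They ranged from Aqp4, at 72.6 ± 4.3 TPM, to Slc1a2, Aldoc and Slc1a3, at 1079 ± 143, 323 ± 49 and 215 ± 34 TPM. Of the 9 hippocampal neuron markers, C1ql2 was over 1.5-fold higher in replicate 2 by its scaled counts, at 17.6 and 24.7 TPM. The other 8 were not over 1.5-fold apart, but they were not all alike between libraries. Wfs1 had a ratio of 1.49 (1.43 to 1.55), close to the 1.51 (1.37 to 1.65) of C1ql2. Neurod6 went the other way, with a ratio of 0.909 (0.871 to 0.948). The part of any of these in the alpha and beta differences was not tested.

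Other genes of protocadherin biology set these levels in context. Of the 12 protocadherins that lie outside the clusters, 11 were detected, with a median of 27.3 ± 3.5 TPM. Pcdh1 led with 146 and 143 TPM, followed by Pcdh9 with 77.1 and 73.1 TPM and Pcdh20 with 49.02 and 41.2 TPM. Pcdh12, an endothelial protocadherin, was lowest at 0.73 and 0.70 TPM. Pcdh1 thus lay above every clustered member. No gene of this list was over 1.5-fold apart between libraries (0 of 12).

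Regulators of promoter choice and chromatin at these clusters were detected for 14 of 15 genes, with a median of 16.8 ± 0.8 TPM. The highest was the de novo DNA methyltransferase Dnmt3a, with 118 and 104 TPM, and the cohesin subunit Rad21 had 28.0 and 27.7 TPM. Dnmt3b, the methyltransferase known to act on these promoters in the early embryo, was undetected at 0.93 and 0.88 TPM. The insulator factor Ctcf had a log2 ratio of 0.01 between libraries, and 0 of 15 regulators were over 1.5-fold apart.

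Known partners of the cytoplasmic tails were detected for 15 of 15 genes, with a median of 94.4 ± 1.5 TPM. These include the WAVE actin-regulating complex, of which Nckap1 was highest at 206 and 211 TPM. Next were the tyrosine kinase Ptk2b, which gamma and alpha tails inhibit, at 178 and 176 TPM, and the WAVE subunits Abi2, at 160 and 176 TPM, and Wasf1, at 166 and 170 TPM, with equal means. Axin1 was lowest, at 10.1 and 9.49 TPM. Other recognition and adhesion molecules were detected for 9 of 9 genes, with a median of 40.0 ± 4.2 TPM. Ncam1 led at 183 and 184 TPM, ahead of L1cam at 92.4 and 74.5 TPM and Celsr2 at 79.8 and 82.6 TPM, and Celsr1 was lowest at 2.52 and 2.77 TPM. Over 1.5-fold differences between libraries were counted in 0 of 15 partners and 0 of 9 adhesion genes.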

How the data were processed

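Total RNA sequencing of 2 hippocampus libraries was described from the processed tables. Per the file headers and the notes deposited with them, the authors quantified reads against mm10 and GENCODE M21. The first quantification, in RSEM layout, gives expected counts (estimated reads, not whole numbers), TPM and the percent of a gene's TPM held by each transcript, per the file headers. The second, in kallisto layout, gives estimated counts and TPM that the authors made directly from the reads. No source used here gives the aligner, the versions or whether strand was used. mm10 is C57BL/6J sequence, and reads from CAST/EiJ alleles, which were not analysed apart, can match it less well. The authors' TPM covers all entries, of which nuclear protein-coding genes held 45.0% and 42.9% in the first and 74.0% and 70.8% in the second quantification.

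Counts were rounded and scaled by TMM (edgeR 4.0.16, R 4.3.3) with a prior count of 0.5. The ratio step was tested on simulated counts with known changes and counting error only. That simulation did not cover the division of shared reads or other variation between libraries. Rows that name no annotated gene (0.430% and 0.423% of counts) stayed out. Word sharing used the annotated transcripts. Quantifications were compared with a pseudocount of 0.1 TPM. Text names the 3 highest and the lowest member of each cluster, all C-type members, and the 3 highest and the lowest gene of each list, except 1 listed gene that is not reported here by name. Members, lists and thresholds were chosen with earlier results of these data known. Alternatives were the second quantification, other floors, folds and scalings, rescaled TPM, expected counts and single libraries. Python 3.11.15 was used for the rest. Sequences were not printed.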

Additional observations from a re-analysis of the deposited data

How the results depend on the processing

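Detected members numbered 57 in every setting tried except a floor of 2 TPM, which gave 51. Rescaling TPM to nuclear protein-coding genes moved the medians to 8.53 (alternate alpha), 6.85 (beta), 11.5 (alternate gamma) and 107 TPM (C-type). The second quantification gave 5.33, 3.87, 7.37 and 36.4 TPM. Transcripts with a full variable exon, a setting added after seeing the data, gave 4.93 TPM for alternate gamma and 24.7 TPM for C-type members. The C-type percent of the gamma level was 54.8% in the second quantification, 56.8% by expected counts and 53.6% with full variable exons. Members over 1.5-fold apart between replicates numbered 8, against 5 with total-count scaling, 14 at 1.3-fold and 2 at 2-fold. Of members over 2-fold apart between quantifications there was 1, and 3 at 1.5-fold (Pcdhb6, Pcdhb8 and Pcdhgc4). From single libraries, the medians ran from 3.05 to 4.19 (alternate alpha), 2.85 to 3.20 (beta), 5.01 to 5.10 (alternate gamma) and 40.8 to 52.6 TPM (C-type), and the C-type percent from 34.9% to 43.5% of alpha and 59.2% to 63.9% of gamma. No paired analysis was possible because there is 1 group. Every spread rests on 2 libraries, and the few counts of Pcdhb1 limit its ratio.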
